A study of Mus musculus with 16 samples.

Results

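Short protein-coding genes were defined here by position alone: every autosomal protein-coding gene of the GENCODE M21 annotation whose record spans at most 3000 bp from gene start to gene end. Of 20807 autosomal protein-coding genes, 2112 met this limit, and 182 of them were left out by name (120 olfactory receptor genes and 62 replication-dependent histone genes). The remaining 1930 genes had a median length of 1596 bp, from 57 to 3000 bp, and 850 of them had a single exon. The members nearest to the limit were Galr2 and Gzme at 3000 bp and Cdkn2d at 2998 bp, and the shortest genes beyond it were Polr2k at 3001 bp and Ccdc115 and Rabac1 at 3003 bp. Within the members, 930 genes lay at least 5 kb from any other protein-coding gene and are called isolated, 540 lay nearer, and 460 overlapped another gene.

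The cells were wild-type Atxn7l3+/+ (WT) and Atxn7l3-/- (KO) mouse embryonic stem cells (mESCs) and mouse embryonic fibroblasts (MEFs), all of the strain background DBA/2 x C57BL/6. The null allele was present in every KO cell, since the mESCs came from blastocysts and the MEFs from embryos, and the KO MEFs are MEF-like cells of unusual shape. The mESCs were grown without feeders in serum and LIF with the kinase inhibitors PD0325901 (1 uM) and CH99021 (3 uM), and the embryos used for MEFs were taken at E10.5. The ChIP-seq (sequencing of immunoprecipitated chromatin) used an antibody to H2B monoubiquitylated at its C-terminal lysine (H2Bub1) and another to RPB1, the largest subunit of RNA polymerase II (Pol II). The 8 lists of peaks come from 1 library per group, so replicate spread is unknown and p-values are not given. The other 8 labelled samples, chromatin inputs and Ser2P Pol II libraries, were not analysed here.

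H2Bub1 is laid down by the ubiquitin ligase pair RNF20 and RNF40 as Pol II transcribes a gene, and it marks the bodies of active genes from just after the transcription start site (TSS) onwards. It is removed by a protease module in which ATXN7L3 is the adaptor that the ubiquitin proteases need for activity. A very short gene holds only a few nucleosomes between its promoter and its end.

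The 4 H2Bub1 lists held 19725 to 48952 peaks with a median width of 957 to 2766 bp, and the 4 Pol II lists held 11963 to 45870 peaks with a median width of 495 to 666 bp. The lists do not give the read depth behind them. At the targeted gene Atxn7l3, which at 7332 bp is no member, H2Bub1 peaks covered 100% (WT) and 62.5% (KO) of the body in mESCs and 22.0% (WT) and 65.3% (KO) in MEFs, and Pol II promoter peaks were called in all 4 lists with folds of 3.61 and 3.71 in mESCs and 20.9 and 23.4 in MEFs. The promoter lies outside exons 2 to 12, which the targeting construct placed between loxP sites, so a peak there does not check the KO label. Over that stretch, from 102291898 to 102295059 bp on chromosome 11 by the numbering of the transcript Atxn7l3-201, H2Bub1 covered 100% (WT) and 13.0% (KO) in mESCs and 21.6% (WT) and 19.6% (KO) in MEFs, and Pol II 20.7% (WT) and 11.9% (KO) in mESCs and 19.3% (WT) and 10.9% (KO) in MEFs. The exact ends of the deletion were not used here, and the paper derives this null allele by FLP recombination, while the stretch is set by loxP sites. In KO cells peaks still lay in the stretch, H2Bub1 over 412 bp in mESCs and 621 bp in MEFs, and Pol II over 377 and 344 bp. Whether these bases were deleted was not tested, so the stretch does not check the KO label in either cell type. Of 15 pluripotency genes, Pol II was at the promoter of 12 (WT) and 10 (KO) in mESCs and of 2 and 3 in MEFs. Of 13 fibroblast genes, all 13 had it in both MEF lists, against 0 (WT) and 1 (KO) in mESCs.

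Promoter sequences of 4 short genes are printed because these genes show 4 patterns met among the results: the mark in every list (Rps12, a ribosomal protein), the mark in the KO but not the WT of MEFs beside Pol II in both (Mrpl41, a mitochondrial ribosomal protein), the mark in mESCs alone (Sox2, a pluripotency transcription factor) and both marks in KO MEFs alone (Tcf21, a mesenchymal transcription factor). Each run holds the 250 bases ahead of the GENCODE gene start, 5′ to 3′ on the strand of the gene, from the RefSeq copy of the GRCm38.p6 genome. Capitals mark 4 motifs searched on both strands, namely the TATA box (TATAAA), the CCAAT box, the GC box (GGGCGG) and the core that ETS factors bind (CCGGAAG).
Rps12, chr10:23787276-23787525, minus strand: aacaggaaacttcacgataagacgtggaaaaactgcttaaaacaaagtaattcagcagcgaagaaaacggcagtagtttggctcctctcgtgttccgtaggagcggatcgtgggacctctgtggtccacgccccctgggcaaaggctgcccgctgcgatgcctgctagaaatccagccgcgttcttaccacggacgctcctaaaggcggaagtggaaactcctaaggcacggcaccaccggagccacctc
Mrpl41, chr2:24975099-24975348, minus strand: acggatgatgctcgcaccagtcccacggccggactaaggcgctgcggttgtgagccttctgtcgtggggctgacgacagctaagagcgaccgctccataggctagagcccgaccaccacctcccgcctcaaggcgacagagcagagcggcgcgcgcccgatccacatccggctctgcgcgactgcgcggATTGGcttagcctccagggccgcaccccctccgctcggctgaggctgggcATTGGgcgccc
Sox2, chr3:34650155-34650404, plus strand: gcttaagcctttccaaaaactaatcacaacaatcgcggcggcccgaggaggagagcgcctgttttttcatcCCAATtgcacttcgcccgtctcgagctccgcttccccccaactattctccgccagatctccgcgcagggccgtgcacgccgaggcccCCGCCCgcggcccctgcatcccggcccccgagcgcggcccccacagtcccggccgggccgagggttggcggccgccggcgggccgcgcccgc
Tcf21, chr10:22820175-22820424, minus strand: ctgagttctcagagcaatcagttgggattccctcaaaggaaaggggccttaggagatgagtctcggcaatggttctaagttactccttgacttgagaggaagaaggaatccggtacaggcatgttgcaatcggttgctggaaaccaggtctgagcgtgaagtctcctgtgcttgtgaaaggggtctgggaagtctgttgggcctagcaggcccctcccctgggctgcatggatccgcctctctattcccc

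In the window from 250 bases before to 50 bases after the gene start, Sox2 had 37 CpG dinucleotides, Mrpl41 31, Rps12 22 and Tcf21 8. The Mrpl41 run holds CCAAT 2 times, read on the other strand, and the Sox2 run holds CCAAT and GGGCGG 1 time each. None of the 4 motifs occurs in the printed runs of Rps12 and Tcf21, which says only that those letters are not in these bases.

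Short genes differed from the rest of the annotation in their promoters before any mark was considered. The same window of 300 bases held a median of 5 CpGs at the 1930 short genes, against 13 at the 18695 autosomal genes over 3 kb. This split followed the marks within the short genes. The 200 genes with H2Bub1 in all 4 lists had a median of 21 CpGs (interquartile range 14 to 28), and the 1072 genes with the mark in no list had 2 (1 to 5). GGGCGG was found at 56.0% of the former and 8.40% of the latter, against 43.7% of all autosomal promoters. TATAAA was found at 34.3% of the latter, against 12.7% of all, and at 7.43% of the 350 genes with Pol II in all 4 lists. CCAAT showed little of this, with 38.5% and 43.8%, against 38.6% of all. The 139 genes with Pol II in both MEF lists and no mESC list had a median of 11 CpGs. CCGGAAG was found at 16.3% of the 350 genes with Pol II in all 4 lists and 2.27% of the 1192 with Pol II in none.

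H2Bub1 was called at a minority of short genes in every library. A gene counts as called when at least 1 bp of a peak lies in its body. In WT mESCs 658 of 1930 short genes (34.1%, exact 95% interval 32.0 to 36.3%) were called, against 55.7% of all autosomal genes, and in KO mESCs 736 (38.1%, 36.0 to 40.3%), against 62.1%. In WT MEFs 222 short genes were called (11.5%, 10.1 to 13.0%), against 31.7%, and in KO MEFs 555 (28.8%, 26.7 to 30.8%), against 54.3%. Intervals of shares of genes are exact binomial (Clopper-Pearson) intervals and cover counting error within a list only. Intervals of medians are exact binomial intervals over genes, which hold the spread from gene to gene, and those of differences of shares combine the exact limits of both shares. A longer gene body offers more room for 1 bp of a peak, so the shares of all genes are given as background for body calls, and length classes are compared over the first 1000 bp alone.

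Pol II was less often called at short genes than over all genes in a promoter window of the same size at every gene. With a peak within 1000 bp on either side of the TSS, the counts were 501 in WT mESCs (26.0%, against 35.3% of all autosomal genes), 420 in KO mESCs (21.8%, against 32.1%), 649 in WT MEFs (33.6%, against 55.3%) and 608 in KO MEFs (31.5%, against 52.3%). In the body, from 300 bp after the TSS to the gene end, 437, 348, 629 and 571 of the 1887 short genes over 300 bp had a peak, against 37.5%, 29.6%, 59.9% and 55.6% of all genes. The promoter window and the body share the bases from 300 to 1000 bp after the TSS, or to the gene end where that is nearer. The lists of KO cells were shorter than those of WT cells in both cell types, and with equal numbers of peaks per pair the excess of WT-only over KO-only promoters in mESCs went from 3.03 to 1.24.

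**Figure D1:**
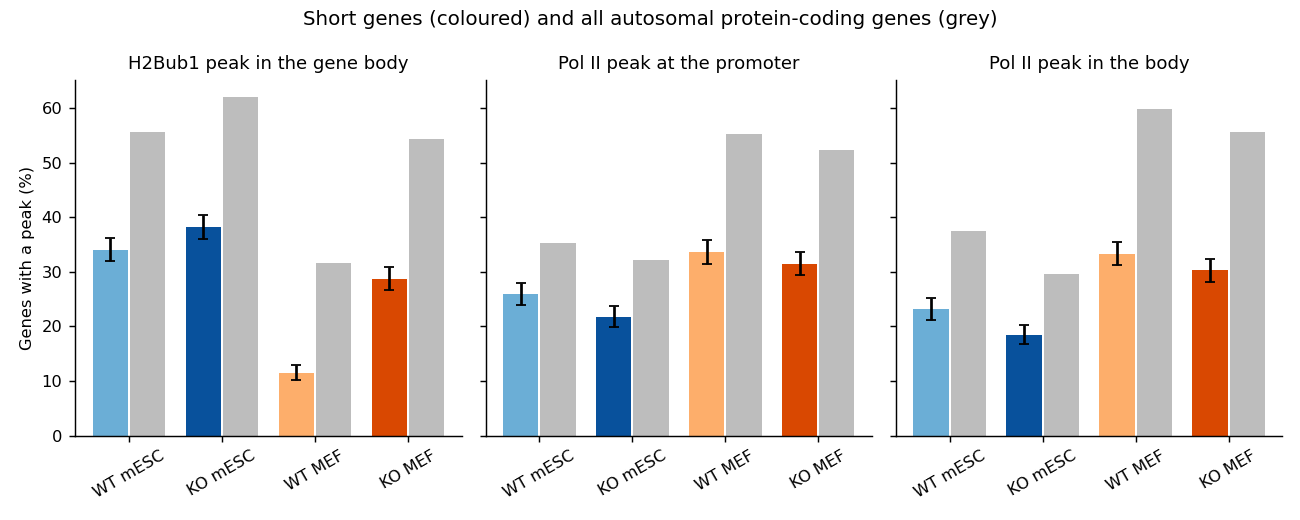
Percent of short genes (coloured bars, n = 1930, or 1887 for the body panel) and of all autosomal protein-coding genes (grey bars) with an H2Bub1 peak in the gene body, a Pol II peak at the promoter or a Pol II peak in the body, in each library; error bars are exact 95% intervals of counting error. The coloured bar is below the grey bar in every panel and library, where body calls have more room at longer genes, and the H2Bub1 bar of WT MEFs (11.5%) is the lowest.

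H2Bub1 was in none of the 4 lists at 1072 short genes (55.5%, against 31.4% of all autosomal genes) and in all 4 at 200 (10.4%, against 29.0%). The most frequent intermediate pattern, with 239 genes, was the mark in both mESC lists and in KO but not WT MEFs. It was found in both mESC lists and no MEF list at 153 genes, and in KO MEFs alone at 46. A Pol II promoter peak was in no list at 1192 short genes (61.8%, against 41.1%) and in all 4 at 350 (18.1%, against 26.1%). All 350 of these had H2Bub1 in at least 1 list. The KO mESC list by itself held H2Bub1 at 97.8% of all autosomal genes with a Pol II promoter peak. The count is therefore not read as a trait of short genes.

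The mark and the polymerase were joined gene by gene within each cell type and genotype. Among short genes with a Pol II promoter peak, 444 of 501 carried H2Bub1 in WT mESCs (88.6%, against 91.9% of all autosomal genes with such a peak) and 410 of 420 in KO mESCs (97.6%, against 97.8%). In WT MEFs it was 206 of 649 (31.7%, 28.2 to 35.5%, against 53.4%), and in KO MEFs 508 of 608 (83.6%, 80.4 to 86.4%, against 93.3%). These shares depend on the call: with peaks of −log10 q of at least 3 they were 43.0%, 83.5%, 8.64% and 77.5%, and with at least 50% of the body covered 66.1%, 87.9%, 21.7% and 75.5%, in the same order. WT MEFs thus had 443 short genes with Pol II and no called H2Bub1, and KO MEFs 100. The converse, H2Bub1 without a Pol II promoter peak, was met at 214 short genes in WT and 326 in KO mESCs, and at 16 and 47 in the MEFs. Part of it lay beside or within other genes. In KO mESCs it was 11.3% of isolated genes without Pol II (95 of 838) and 39.9% of overlapping ones (120 of 301).

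H2Bub1 calls differed with the position of a short gene when Pol II was not taken into account. Of the 930 isolated short genes, H2Bub1 was called at 17.4% (WT) and 19.9% (KO) in mESCs and 5.59% (WT) and 11.3% (KO) in MEFs, while the 460 genes that overlap another gene reached 53.3%, 60.0%, 18.3% and 52.4%. Among genes with a Pol II promoter peak isolated genes were not lower, at 89.5%, 97.8%, 39.8% and 85.2%, against 88.6%, 97.6%, 31.7% and 83.6% of all short genes. Single-exon genes (850) were called less often than genes with several exons (1080), at 23.9% against 42.1% in WT mESCs and 19.8% against 35.8% in KO MEFs. Among genes with Pol II at the promoter that gap was smaller, at 86.1% against 89.8% and 80.8% against 84.7%. Of the 513 genes of at most 1 kb, H2Bub1 was called at 67 (WT) and 78 (KO) in mESCs and 19 (WT) and 61 (KO) in MEFs. Of all 1930 short genes it was called at 658, 736, 222 and 555 in the same order. A body of at most 1 kb offers less room for 1 bp of a peak. Pol II was also at fewer of these promoters in both genotypes, 43 in mESCs and 60 in MEFs, against 380 and 585 of all short genes. The part of length in these counts was not tested.

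In mESCs, more short genes were under H2Bub1 in KO than in WT, and more of their summed sequence was covered. The mark was called in both genotypes at 595 short genes, in KO only at 141 (7.31%, against 9.53% of all autosomal genes) and in WT only at 63 (3.26%, against 3.13%). At the 595 shared genes the median covered share was 72.8% of the gene body in WT (95% interval of the median 66.7 to 77.8%) and 100% in KO. It was higher in KO at 373, equal at 128 and lower at 94. Over all autosomal genes called in both genotypes the medians were 16.5% (WT) and 38.2% (KO). Short genes covered from end to end numbered 148 in WT and 365 in KO. Summed over all short genes, 820 of 3161 kb of gene body lay in peaks in WT (26.0%) and 1094 kb in KO (34.6%), a ratio of 1.33. Over all autosomal genes 6.73% (WT) and 13.6% (KO) of the gene bodies lay in peaks, a larger relative rise. At short genes the fold of the highest peak touching each gene, weighted by covered bases, had a mean of 3.46 in WT and 3.55 in KO.

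In MEFs the same contrast was larger. The mark was called in both genotypes at 213 short genes, in KO only at 342 (17.7%, against 22.9%) and in WT only at 9 (0.466%, against 0.293%). The median covered share of the 213 was 64.1% in WT (60.1 to 68.8%) and 100% in KO, higher in KO at 179, equal at 28 and lower at 6. Over all autosomal genes called in both genotypes the medians were 14.9% (WT) and 64.1% (KO). Short gene bodies wholly in peaks numbered 31 in WT and 333 in KO. Covered sequence of short genes came to 269 kb in WT (8.50%) and 918 kb in KO (29.0%), a ratio of 3.42. Over all autosomal genes 4.80% (WT) and 21.4% (KO) lay in peaks, again a larger relative rise. At short genes the mean fold, weighted as in mESCs, was 3.26 in WT and 3.90 in KO. With peaks of −log10 q of at least 3 the ratio of covered bases was 2.29 in mESCs and 9.22 in MEFs, and that of called genes 2.11 and 8.06, in place of 1.12 and 2.50.

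**Figure D2:**
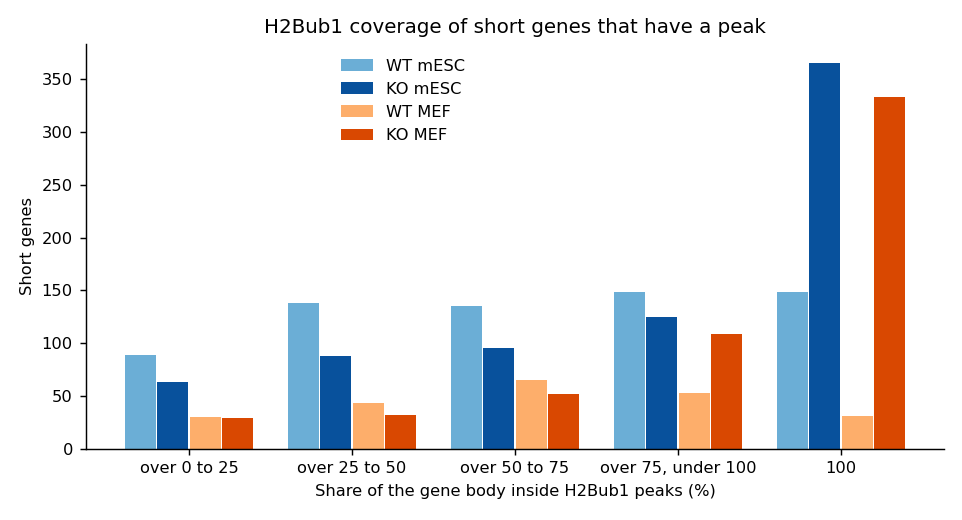
Number of short genes by the share of the gene body that lies inside H2Bub1 peaks (percent, 5 classes), in each library; genes with no peak are not drawn. The 2 KO libraries stand out in the class of complete coverage, with 365 genes in mESCs and 333 in MEFs against 148 and 31 in WT.

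Pol II did not follow that pattern. In mESCs 380 short genes had a promoter peak in both genotypes, 40 in KO only (2.07%, against 4.85% of all genes) and 121 in WT only (6.27%, against 8.04%). In MEFs the numbers were 585, 23 (1.19%, against 1.51%) and 64 (3.32%, against 4.43%). At promoters called in both, the median log2 ratio of KO over WT peak fold in mESCs was -0.03 (-0.08 to 0.03) and in MEFs it was -0.22 (-0.28 to -0.16), and over all autosomal promoters it was 0.02 and -0.22. Fold is relative to the background of each library, so these ratios set no level across libraries.

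The H2Bub1 peaks of isolated short genes were measured from end to end. Some ran well beyond the 5 kb that define isolation, up to 24099 bp past the gene end at Sox2 in KO mESCs and 25680 bp ahead of the TSS at Tbcc in KO MEFs, both named after their values were seen. At the 140 isolated genes called in both mESC lists, the stretch from the first to the last base in a peak measured 1756 bp in WT and 2807.5 bp in KO as medians, with a median difference of 745 bp per gene (397 to 1341 bp). The peak ended past the annotated gene end by a median of -275.5 bp in WT, that is short of it, and 235 bp in KO. At the 52 isolated genes called in both MEF lists the stretch was 1712.5 and 5542 bp, longer in KO at 50 of 52 genes. Peaks reached another protein-coding gene at 0 of the 140 genes in either mESC list, and at 0 (WT) and 2 (KO) of the 52 in MEFs, without which the median difference was 2952.5 bp in place of 3054.5 bp. There the median start of the peaks ahead of the TSS was -144.5 bp in WT, that is inside the gene, and 944 bp in KO, and the median end past the gene end was -203 bp in WT and 2188 bp in KO. In KO MEFs the mark thus covered sequence on both sides of the annotated gene.

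**Figure D3:**
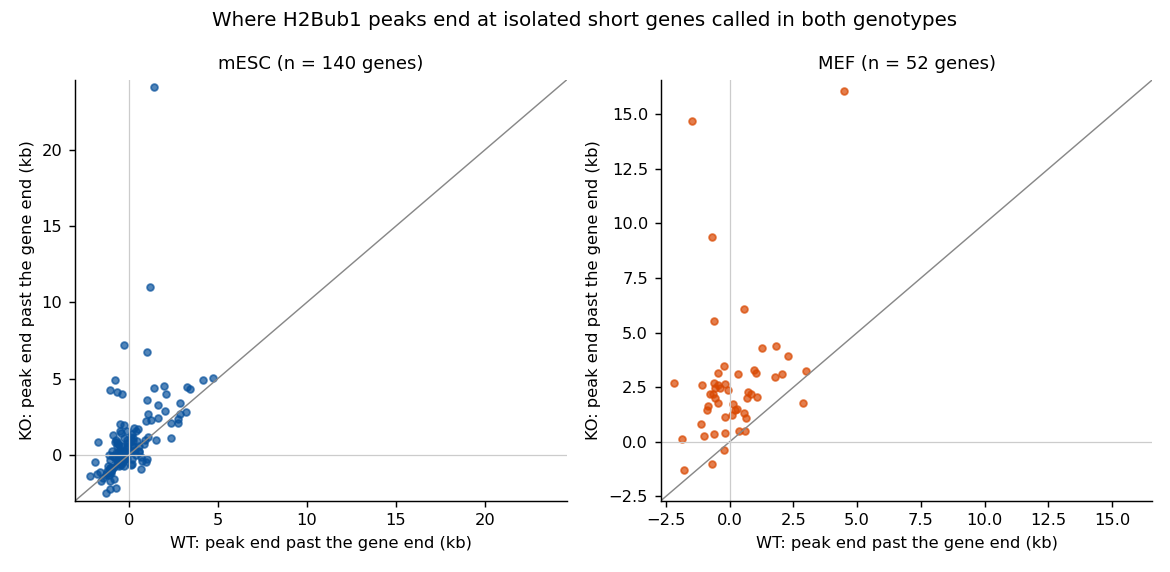
Distance in kb from the annotated gene end to the last base of the H2Bub1 peaks touching an isolated short gene, WT on the horizontal and KO on the vertical axis, 1 point per gene called in both genotypes (140 in mESCs, 52 in MEFs); positive values lie beyond the gene end and the diagonal marks equal values. In KO MEFs 48 of 52 genes lie above the diagonal, and in KO mESCs 100 of 140.

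The same was seen when the gene end itself was the point of reference. Among isolated short genes with a Pol II promoter peak, the base at the gene end was inside H2Bub1 at 44.8% in WT mESCs (47 of 105) and 64.1% in KO (59 of 92), and in MEFs at 18.8% in WT (24 of 128) and 69.6% in KO (80 of 115). At 2000 bp past the end the shares were 17.1%, 30.4%, 3.91% and 33.0%, and at 4000 bp 8 of 105, 23 of 92, 2 of 128 and 11 of 115 genes were inside, which counts single bases and not unbroken peaks. The rise in KO was not particular to short genes. At isolated genes of 3 to 10 kb with such a peak, the gene end was inside at 23.0% (WT) and 32.1% (KO) in mESCs. In MEFs it was inside at 5.38% (WT) and 36.5% (KO) of them.

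To compare short genes with longer ones without the advantage of a long body, the first 1000 bp after the TSS were examined at genes with Pol II at the promoter. In WT mESCs 85.2% of short genes had H2Bub1 there and 81.5% of genes of 10 to 50 kb, a difference of 3.75 percentage points (0.0980 to 7.03). That difference was -5.07 points with peaks of −log10 q of at least 3, and 1.05 points (-2.72 to 4.50) against genes over 50 kb. In KO mESCs the shares were 97.1% and 97.3%, a difference of -0.153 points (-2.30 to 1.36), or -4.85 points with the stricter peaks. In WT MEFs they were 29.4% and 28.7%, a difference of 0.702 points (-2.99 to 4.56), while at isolated genes it was 9.16 points (0.393 to 18.4), an interval without 0. In KO MEFs the mark was there at 82.9% of short genes and 92.3% of genes of 10 to 50 kb, a difference of -9.37 points (-12.7 to -6.36).

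The deficit in KO MEFs lay at short genes in the lowest range of Pol II fold. When promoters were split into 3 bands of equal size by Pol II peak fold, a split chosen after the data had been seen, 136 of 233 short genes of the low band had H2Bub1 in the first 1000 bp (58.4%, 51.8 to 64.8%), against 81.3% of genes of 10 to 50 kb. In the middle band it was 161 of 165 (97.6%) against 96.5%, and in the high band 207 of 210 (98.6%) against 98.7%. With isolated genes alone the low band stood at 58.5% against 83.3%. In WT MEFs the share of short genes was 9.21% in the low, 27.1% in the middle and 51.9% in the high band, in WT mESCs 74.1%, 85.0% and 94.2%, and in KO mESCs 95.3%, 95.4% and 100%.

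**Figure D4:**
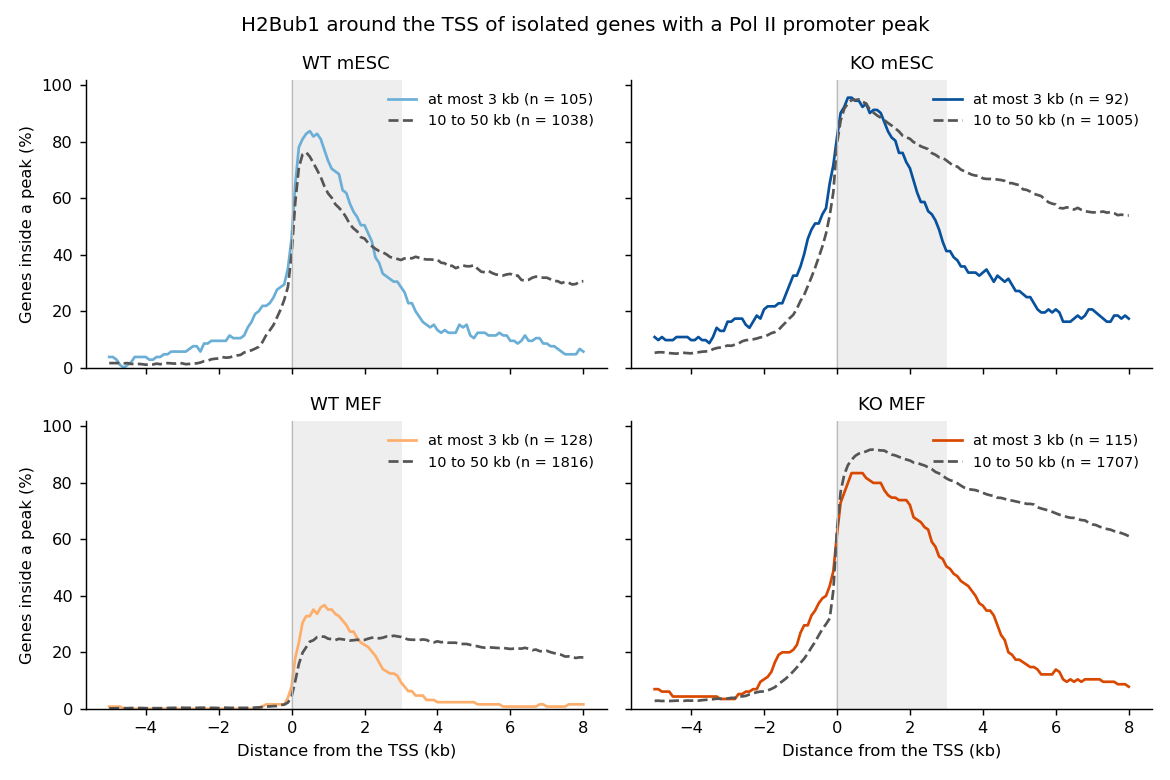
Percent of isolated genes with a Pol II promoter peak whose base at a given distance from the TSS (horizontal axis, kb, positive in the direction of transcription) lies inside an H2Bub1 peak, for short genes (solid) and genes of 10 to 50 kb (dashed), 1 panel per library; the grey band spans the 3 kb within which every short gene ends. Short genes reached maxima of 83.8% (WT) and 95.7% (KO) in mESCs and 36.7% (WT) and 83.5% (KO) in MEFs, all within the first 1000 bp, and lay below the longer genes at 3 kb.

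Cytosolic ribosomal protein genes, which build the ribosome and are among the most transcribed genes of any cell, had 31 short members. H2Bub1 was called at 30 (WT) and 31 (KO) in mESCs and 30 (WT) and 30 (KO) in MEFs, and Pol II at 30 promoters in each list. Of all short genes, H2Bub1 was at 34.1%, 38.1%, 11.5% and 28.8% and Pol II at 26.0%, 21.8%, 33.6% and 31.5% in the same libraries. With peaks of −log10 q of at least 3, the H2Bub1 count in WT MEFs was 18 in place of 30, and in KO MEFs it stayed at 30. The exception was Rpl10l, a retrocopy of an X-linked gene, which had H2Bub1 in KO mESCs alone. Their covered share was near its limit in both mESC lists, with a mean of 94.4% in WT and 94.0% in KO, while in MEFs it stood at 81.2% in WT and 95.9% in KO. Rps12 (small subunit) was covered over 100%, 87.0%, 85.1% and 100% of its body in WT mESCs, KO mESCs, WT MEFs and KO MEFs, with Pol II folds of 16.1, 16.3, 30.3 and 30.2. Rplp1 (ribosomal stalk) was covered over 100% in all 4.

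The height of the H2Bub1 peaks at these genes differed between the cell types in its direction. The fold of the highest H2Bub1 peak touching the gene had a median of 5.16 in WT mESCs and 4.26 in KO mESCs at the 30 genes called in both. It was lower in KO at 23 and higher at 7, with a median log2 ratio of -0.21 (-0.36 to -0.10). Over all 595 short genes called in both mESC lists that ratio was 0.11, and over all autosomal genes 0.12. In MEFs the median went from 3.68 in WT to 4.66 in KO, higher in KO at 29 of 30 genes, with a median log2 ratio of 0.38 (0.30 to 0.47), against 0.50 over the 213 short genes. An example is Rpl13 with 8.70, 5.93, 4.74 and 5.64 in WT mESCs, KO mESCs, WT MEFs and KO MEFs. The fold of a broad peak is an average over its width, and the median width of these peaks was, in mESCs, 3910 (WT) and 4803.5 bp (KO) and, in MEFs, 2269 (WT) and 5589.5 bp (KO). The part of the width in the result was not tested, nor how reads were shared with the many processed copies of these genes.

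Ubiquitin precursor and immediate early genes showed the same order, and replacement histone genes did not. For metallothionein genes the order could not be read. All 3 ubiquitin precursor genes, which encode ubiquitin in tandem or fused to ribosomal proteins, had lower fold in KO than WT mESCs and higher fold in KO than WT MEFs. At Ubb the 4 values were 5.16, 3.85, 4.69 and 4.92. Immediate early genes, the first to respond to growth signals, had lower fold in KO at all 6 called in both mESC lists and higher fold at all 5 called in both MEF lists. At replacement histone genes the median log2 ratio of KO over WT was -0.34 in mESCs, with 4 of 5 lower in KO, and -0.02 in MEFs, with 3 of 4 lower. At the 2 metallothionein genes called in both mESC lists it was 0.04, with 1 lower and 1 higher in KO, and in WT MEFs 0 of this list were called. Among the immediate early genes, the transcription factor gene Klf2 gave 8.18, 5.03, 2.87 and 5.65, and Jund, an AP-1 subunit, 5.11, 5.06, 2.89 and 6.02. At the 195 short genes with the highest band of WT Pol II fold in mESCs the median log2 ratio was 0.08 (0.01 to 0.11), and 80 of the 195 were lower in KO.

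Of the 8 short mitochondrial ribosomal protein genes, which serve translation inside the organelle, 7 (WT) and 8 (KO) carried H2Bub1 in mESCs and 0 (WT) and 8 (KO) in MEFs, and all 8 had Pol II at the promoter in both MEF lists. Of all short genes 11.5% (WT) and 28.8% (KO) carried the mark in MEFs, and 7 of these 8 fall in the most frequent intermediate pattern, that of 239 genes. Their mean covered share was 43.9%, 98.9%, 0% and 98.5%. Mrpl41 was covered over 50.8%, 100%, 0% and 100%, with Pol II folds of 5.45, 8.05, 15.7 and 13.5. Mrpl53, Mrpl52 and Mrps34 had the same 0% in WT MEFs and 100% in KO MEFs, with MEF Pol II folds (WT and KO) of 17.2 and 19.01, 14.9 and 14.2, and 14.4 and 11.1.

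Respiratory chain and ATP synthase genes (18) were called for H2Bub1 at 13, 14, 10 and 13 in the same order of libraries, where all short genes had 34.1%, 38.1%, 11.5% and 28.8%, with a mean covered share of 49.5%, 66.9%, 38.1% and 67.6%. Ndufb10, a subunit of complex I, was covered over 96.1%, 100%, 60.9% and 100%, while its Pol II fold was 10.53, 12.6, 35.8 and 11.9, the lowest ratio of KO to WT in MEFs among the 16 members called in both. Cyc1 (cytochrome c1 of complex III) had a Pol II promoter peak in WT mESCs with fold 6.00 and none in KO mESCs, and was covered by H2Bub1 over 100% in both. Atp5g3 (a subunit of the ATP synthase ring) showed the reverse for Pol II, with no peak in WT and a fold of 5.52 in KO mESCs.

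Chaperone and metallothionein genes respond to protein damage and to metals. Of 12 chaperone genes 6, 9, 1 and 9 were called, where all short genes had 34.1%, 38.1%, 11.5% and 28.8%, and Pol II was at 4, 4, 9 and 8 promoters, where all short genes had 26.0%, 21.8%, 33.6% and 31.5%. Hspa1b, an inducible HSP70 gene, was covered over 25.9%, 0%, 0% and 100%, with Pol II in MEFs alone at folds of 21.8 and 24.1, and mapping to its near-identical neighbour copy was not tested. Hspa2, a testis-enriched HSP70, was covered over 65.1%, 76.1%, 0% and 100%, with Pol II folds of 21.4 and 19.6 in MEFs. Mt1 and Mt2, which bind zinc and other metals, were both covered over 0% in WT and 100% in KO MEFs. The Pol II folds of Mt1 there were 20.2 and 21.8, and those of Mt2 10.6 and 20.2.

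Replacement histone genes, which are transcribed outside S phase, were called at 5, 5, 4 and 5 of 5, beside 34.1%, 38.1%, 11.5% and 28.8% of all short genes. H2afx, the variant that is phosphorylated at DNA breaks, was covered over 100%, 100%, 69.8% and 100%, and H1f0, a linker histone of resting cells, over 28.7%, 100%, 0% and 100%. Of the 4 short proteasome genes 3, 3, 2 and 3 were called, beside those same shares of all short genes. Psmb10, a subunit of the immunoproteasome, was covered over 7.90%, 81.1%, 0% and 85.9%. Both short genes of the general transcription list, Med11 of the Mediator complex and Polr2i of Pol II itself, were covered over 100% in KO mESCs, against 13.8% and 61.3% in WT.

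Developmental transcription factor genes (48, of which 32 are isolated) were called for H2Bub1 at 17, 22, 3 and 11 and for Pol II at 11, 8, 13 and 9. Sox2 was covered over 100% in both mESC lists and 0% in both MEF lists, with Pol II folds of 7.33 and 9.41 in mESCs. Twist1, which drives mesenchymal fate, was covered over 0%, 52.2%, 62.4% and 100%, with Pol II in the MEFs alone at folds of 26.8 and 20.3. Hoxa4, a homeobox gene of the anterior-posterior axis, was covered over 0% in 3 lists and 100% in KO MEFs, with Pol II folds of 7.31 in WT and 9.31 in KO MEFs. These H2Bub1 counts stand beside 34.1%, 38.1%, 11.5% and 28.8% of all short genes, and the Pol II counts beside 26.0%, 21.8%, 33.6% and 31.5%.

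All 5 short pluripotency genes carried H2Bub1 in both mESC lists, and 1 of them, Klf2, also in both MEF lists, where all short genes had 34.1% and 38.1% in mESCs and 11.5% and 28.8% in MEFs. Dppa5a, an RNA-binding protein of early embryos, was covered over 41.7% and 54.5% in WT and KO mESCs, and Foxd3 over 90.2% and 91.3%. The 3 short fibroblast genes, Twist1, Ifitm3 and S100a4, had Pol II in both MEF lists and in neither mESC list, beside 33.6% and 31.5% of all short genes in MEFs and 26.0% and 21.8% in mESCs. S100a4 was covered over 0% in 3 lists and 100% in KO MEFs, with Pol II folds of 11.7 in WT and 12.2 in KO MEFs.

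Chemokine, cytokine and interferon genes (44) had a Pol II promoter peak in neither mESC list and at 8 and 6 genes in WT and KO MEFs, and H2Bub1 at 3, 4, 0 and 4. Of all short genes, Pol II was at 26.0% (WT) and 21.8% (KO) in mESCs and 33.6% (WT) and 31.5% (KO) in MEFs, and H2Bub1 at 34.1%, 38.1%, 11.5% and 28.8%. The monocyte attractants Ccl2 and Ccl7 had Pol II folds of 16.6 and 24.7 in WT MEFs and 13.1 and 8.42 in KO MEFs, and were covered over 55.1% and 69.3% in KO MEFs alone. Cxcl1 had Pol II folds of 13.3 and 5.56 in the MEFs and no H2Bub1 in any list, and Cxcl5 had Pol II in WT MEFs alone, with a fold of 9.89. H2Bub1 and Pol II thus stood in opposite order at Ccl7 in the MEFs.

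Receptor, defensin, protocadherin and keratin lists held 248 of the 1072 short genes without H2Bub1 in any list (23.1%), Gm-numbered and Rik-named genes held 407 and 336 were in no list. None of the 119 vomeronasal, taste, trace amine and Mas-related receptor genes, none of the 40 defensin genes and none of the 4 short protocadherin genes had a peak of either kind in their window or body in any list. These families hold near-identical copies, and whether reads could be assigned to them was not tested. Keratin, keratin-associated and cornified envelope genes (91) were called for H2Bub1 at 6, 3, 0 and 1, beside 34.1%, 38.1%, 11.5% and 28.8% of all short genes, and Krtcap3, which is in this list by its symbol alone, accounts for the MEF call. TATAAA began 20 to 40 bp ahead of the gene start at 48.4% of the keratin list and 32.5% of the defensins, against 2.48% of all autosomal promoters. It was there at 0.840% of the receptor genes, whose promoters have a median GC content of 36.3%.

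**Figure D5:**
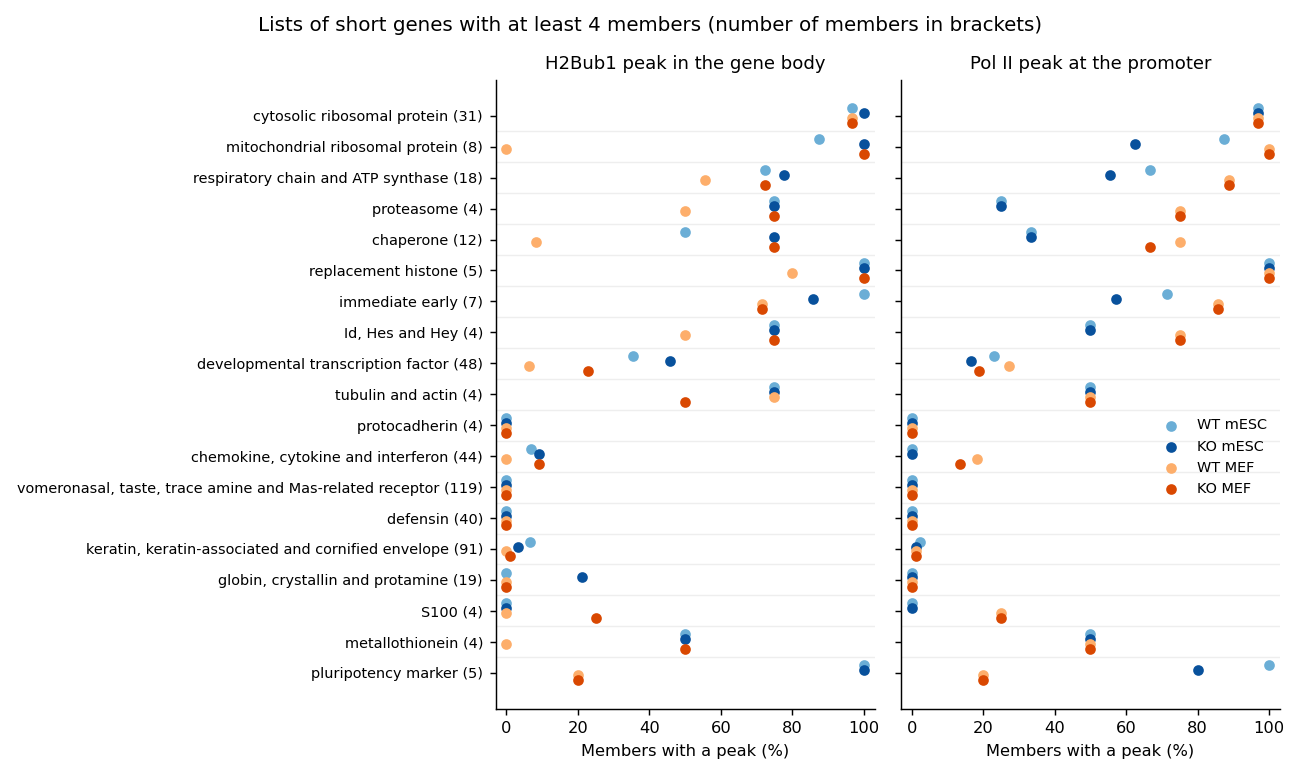
Percent of members with an H2Bub1 peak in the gene body (left) and a Pol II peak at the promoter (right) for lists of at least 4 short genes, 1 point per library, with the number of members in brackets. Mitochondrial ribosomal protein genes go from 0 of 8 in WT MEFs to 8 of 8 in KO MEFs on the left with 8 of 8 in both on the right, and receptor, defensin and protocadherin genes stay at 0 on both sides.

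Genes called in KO alone and at least 5 kb from other genes were described one by one. In mESCs the 5 with the longest covered length were Prss38, Cryge, Cct8l1, Tex19.2 and Fgfbp3. The serine protease gene Prss38, the lens crystallin Cryge and Cct8l1 were covered over 100% in KO mESCs and 0% in the other 3 lists, with no Pol II promoter peak anywhere, and Tex19.2, a germline gene, over 79.5%. Their H2Bub1 folds in KO mESCs were 2.56 at Prss38, 2.42 at Cryge, 2.74 at Cct8l1, 2.84 at Tex19.2 and 3.80 at Fgfbp3, where the WT folds of the 5 genes with the largest falls lay between 2.55 and 2.75. Fgfbp3 differed from the others, with Pol II promoter peaks in all 4 lists at folds of 2.64, 4.17, 17.0 and 8.15. It was covered over 86.5% in KO mESCs and 84.7% in KO MEFs. Of the 19 globin, crystallin and protamine genes, 4 were called in KO mESCs (Cryge, Crygc, Crygd and Hba-x, the last 3 named after their values were seen) and 0 in the other lists, where all short genes had 38.1% in KO mESCs. In MEFs the 5 were Slc25a1, Nudt16, Tcf21, Hspa1b and Hspa2, each covered over 100% in KO. Slc25a1, the mitochondrial citrate carrier, had Pol II folds of 11.6 in WT and 9.79 in KO MEFs, and Nudt16, a nucleotide phosphatase, 10.1 and 9.71. Tcf21 alone among the 5 had no Pol II peak in WT MEFs, with a fold of 18.2 in KO.

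Short genes with less of the mark in KO were the minority. In mESCs the largest falls in covered share were at Gm17617 and Rsc1a1, from 100% to 0%, Spem1 (91.3%), Gsc2 (89.2%) and Lrg1 (86.7%), the last 3 also to 0%. None of the 5 had a Pol II promoter peak in mESCs, and their WT folds lay between 2.55 and 2.75. In MEFs the 5 with the largest falls were Gm10722, Gm10801, Gm17535, Gm10720 and Gm10800, predicted genes that lie in 2 clusters, between 3000922 and 3035805 bp on chromosome 9 and between 98662237 and 98667301 bp on chromosome 2. Gm10800 went from 100% to 56.3% and the other 4 to 0%. Pol II peaks at these had folds of at most 1.97, and whether reads there map to single places was not tested.

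Promoters with Pol II in 1 genotype alone, and none of the other within 5 kb, numbered 92 (WT) and 27 (KO) in mESCs and 41 (WT) and 11 (KO) in MEFs. Of all autosomal promoters 7.12%, 4.28%, 3.74% and 1.15% met the same rule, so that short genes, as a share of all genes, were below the background in each case. Short genes also had a Pol II promoter peak less often. Among genes with such a peak, it was 92 of 501 short genes against 1481 of 7336 autosomal genes in WT mESCs. In KO mESCs it was 27 of 420 against 891 of 6672, in WT MEFs 41 of 649 against 778 of 11497, and in KO MEFs 11 of 608 against 240 of 10890. Among the short genes, the highest in WT MEFs was Mab21l1, a developmental gene, with a fold of 17.0 and no H2Bub1 in any list, and the highest in KO MEFs was Tcf21. Rpp25, a subunit of RNase P, had no Pol II peak in WT MEFs and a fold of 8.63 in KO, and was covered by H2Bub1 over 100%, 100%, 0% and 100%. In mESCs the muscle factor gene Msc had Pol II in KO alone, with a fold of 7.10, and H2Bub1 over 65.2% of its body in WT and 100% in KO. Rrs1, a factor of ribosome assembly, had Pol II in WT but not KO mESCs, with a fold of 5.98, and H2Bub1 over 100% in both. In MEFs its Pol II folds were 11.96 in WT and 9.61 in KO.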

How the data were processed

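The data are 8 peak lists of ChIP-seq libraries, 1 per cell type, genotype and antibody, and are therefore calls of single libraries. The submitters' processing notes name mm10, bcl2fastq 2.17.1.14, Bowtie 1.0.0 and MACS2 2.1.1.20160309. The authors aligned single-end reads and called broad peaks for H2Bub1 and narrow peaks for Pol II. Their methods scale H2Bub1 by size factors over intergenic regions and Pol II by mapped reads. How this entered the calls, the control and the thresholds are not given in the sources used here. Deposited fold values are a linear ratio over local background, averaged over a broad peak and taken at the summit of a narrow one. The deposited −log10 p and −log10 q, the deposited score and the deposited summit offset served for the alternatives alone or not at all.

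Peaks were set, as 1-based positions, against GENCODE M21 (GRCm38, the same build) in Python 3.11.15 (tables in pandas 2.3.3, arrays in numpy 2.4.6, intervals in scipy 1.17.1, drawing in matplotlib 3.10.9), and the functions were tested on simulated peaks. Lists are by symbol. The members, lists and rules were chosen with earlier results of these data known. Genes named are, per list, up to 4 by mean Pol II fold, and, per contrast, the 5 with the largest covered length, fall or fold. Rpl10l and Rpl13 were named after their values were seen. Intervals of differences combine the exact limits. The lists give no read depth, which limits all counts. The alternatives tried were a stricter −log10 q (3 or more), lists cut to the same length, joined peaks, calls at 10% or 50% of the body, isolated or non-overlapping genes, limits of 2000 and 4000 bp, leaving out Gm and Rik names, other promoter and body windows, and Pol II bands.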

Additional observations from a re-analysis of the deposited data

Results flagged for a closer look

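In several lists of short genes the KO and WT values stood in opposite order in the 2 cell types. The difference between the cell types was not tested, since each group has 1 library. For keratin, keratin-associated and cornified envelope genes, the number with H2Bub1 in KO minus that in WT was -3 in mESCs and 1 in MEFs. For cytosolic ribosomal protein genes, the median log2 ratio of KO over WT H2Bub1 peak fold was -0.21 in mESCs and 0.38 in MEFs. For immediate early genes it was -0.21 in mESCs and 0.46 in MEFs. At fewer genes called in both, it was -0.52 and 0.28 for ubiquitin precursors (3 genes in each cell type), -0.063 and 0.28 for Id, Hes and Hey (3 and 2), -0.032 and 0.34 for tubulin and actin (3 and 2), and -0.11 and 0.98 for pluripotency genes (5 and 1).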

How the results depend on the processing

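Of 208 values recomputed under alternatives, 173 stayed within 1.5 times the reported ratio or count or within the reported interval, 30 moved and 5 turned in sign where the reported interval excluded 0. The lists do not give the read depth, which limits every count. No paired analysis was possible because each group has 1 library and the labels give no replicate numbers. With a −log10 q of at least 3, the KO over WT ratio of short genes with H2Bub1 was 2.11 in mESCs and 8.06 in MEFs, and that of covered bases 2.29 and 9.22. With the same limit, H2Bub1 among short genes with Pol II was 43.0% (WT) and 83.5% (KO) in mESCs and 8.64% (WT) and 77.5% (KO) in MEFs, the difference from genes of 10 to 50 kb was -5.07 points in WT mESCs (a turn in sign) and -4.85 in KO mESCs, and 18 cytosolic ribosomal protein genes were called in WT MEFs. With equal numbers of peaks the ratio of WT-only over KO-only Pol II promoters in mESCs was 1.24. With a call at 50% of the gene body the H2Bub1 shares among Pol II genes were 66.1%, 87.9%, 21.7% and 75.5%. The share in WT MEFs was 39.8% at isolated genes and 26.8% with a limit of 2000 bp, where that of WT mESCs was 84.3%. The share in KO mESCs was 98.9% without Gm and Rik names and 98.9% with the narrow promoter, and that in KO MEFs 86.8% with the narrow promoter. Isolated genes gave a difference of 9.16 points in WT MEFs. By bands of Pol II fold, chosen after seeing the data, the difference in KO MEFs was -22.9 points in the low, 1.08 in the middle (a turn in sign) and -0.111 in the high band, and at isolated genes -24.7, 1.33 and 0.859, the last 2 a turn in sign. In KO mESCs the middle and high bands gave -2.36 and 1.72, the latter of opposite sign to a reported value whose interval holds 0. At isolated genes WT mESCs gave -4.72 in the low band (a turn in sign) and 11.97 in the middle band, and WT MEFs 16.7 in the middle and 13.1 in the high band. The cause of these shifts was not tested. The H2Bub1 fold ratio of cytosolic ribosomal protein genes, whose 4 alternatives were also chosen after seeing the data, kept its sign in both cell types, as did the extent of peaks at isolated genes without those that reach another gene, chosen likewise.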
